A study of Mus musculus with 6 samples.

Results

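The 10 mouse genes described here encode chains of the receptors for IL-17 (*Il17ra*, *Il17rc*), IL-4 and IL-13 (*Il4ra*, *Il13ra1*), IL-10 (*Il10ra*, *Il10rb*), interferon-γ (*Ifngr1*, *Ifngr2*) and the cytokines of the common γ chain (*Il2rg*, *Il7r*), and their mRNA was measured in PB neutrophils from Ctrl and LIP mice. They were picked by symbol out of the 29097 genes of the deposited table, and 9 of them were among the 10440 genes that were tested because their mean FPKM reached 1. FPKM is the number of fragments on a gene divided by gene length and library total. *Il17rc* was under that level and is described by its counts, and it was tested as a single gene only where the filter on low values was changed.

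These receptors are assembled at the cell surface from a pair of different chains, of which one usually binds the cytokine and the other is shared or carries signal. The chains for IL-4, IL-10, interferon-γ and IL-7 bind Janus kinases, which phosphorylate STAT transcription factors, whereas the IL-17 receptor chains signal through the adaptor Act1, encoded by *Traf3ip2*. In mature neutrophils, interferon-γ receptors are known for priming and IL-10 and IL-4 receptors for restraint. IL-17 receptors are known for the recruitment of neutrophils, and IL-7 receptor α is known as a lymphocyte chain.

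All mice were wild-type C57BL/6 males of 8 weeks. In the LIP group, the second molars of both jaws and both sides were ligated with silk for 14 d, and Ctrl mice carried no ligature over the same time. CD45+CD11b+Ly6G+ cells were sorted from PB after red cell lysis, and each group had 3 Smart-seq2 libraries, each made of cells pooled from 5 mice, so p-values measure the spread between pools. Smart-seq2 copies whole polyadenylated mRNAs and amplifies them by PCR without molecular identifiers, and reads are therefore not independent molecules.

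Libraries held between 52186555 and 57262379 counts. The libraries of the groups differed in composition: haemoglobin genes took 14.6% to 15.0% of the counts in Ctrl and 1.55% to 1.61% in LIP, mitochondrial genes took 3.40% to 4.24% and 2.13% to 2.31%, and the 21 mature neutrophil markers summed to between 17109 and 19146 CPM in Ctrl and between 61135 and 66290 CPM in LIP. CPM here are counts scaled to library totals after TMM normalization. The defining neutrophil markers were detected in every library, but so were all 12 B cell markers and all 17 T cell markers. Ctrl replicate 2 stood apart for several chains, with *Il13ra1*, *Il4ra*, *Il10ra* and *Il17ra* at 55.0%, 61.7%, 63.1% and 67.7% of the mean CPM of the other Ctrl libraries. Values without this library are given beside those chains.

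The promoter sequences of 7 of the 10 genes were found in the RefSeq table (GRCm38.p6), and *Il17ra*, *Il10ra* and *Il10rb* had no entry there. The sequences shown are those of the chain that rose most (*Il13ra1*), of both interferon-γ receptor chains, which moved unequally, and of the common γ chain gene (*Il2rg*), which fell. Each is the stretch of 250 bases before the RefSeq start, read 5′ to 3′ on the gene's strand, at chrX:36111858-36112107 (+) for *Il13ra1*, chr16:91546809-91547058 (+) for *Ifngr2*, chr10:19591699-19591948 (+) for *Ifngr1* and chrX:101268256-101268505 (−) for *Il2rg*. Capitals mark matches, on either strand, to the letters of a GC box (GGGCGG), of the STAT6-type spacing (TTC and GAA with 4 bases between) and of an ETS site (CCGGAAG).

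Il13ra1: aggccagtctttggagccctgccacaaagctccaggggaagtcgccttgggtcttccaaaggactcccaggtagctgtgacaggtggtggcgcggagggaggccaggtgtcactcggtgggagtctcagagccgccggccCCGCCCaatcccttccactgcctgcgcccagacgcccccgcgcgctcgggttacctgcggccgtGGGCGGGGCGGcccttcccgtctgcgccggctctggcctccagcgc
Ifngr2: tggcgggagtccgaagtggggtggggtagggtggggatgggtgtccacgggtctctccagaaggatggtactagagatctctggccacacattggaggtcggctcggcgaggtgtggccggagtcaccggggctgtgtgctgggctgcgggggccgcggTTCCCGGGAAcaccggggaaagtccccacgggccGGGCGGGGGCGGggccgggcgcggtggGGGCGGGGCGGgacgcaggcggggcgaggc
Ifngr1: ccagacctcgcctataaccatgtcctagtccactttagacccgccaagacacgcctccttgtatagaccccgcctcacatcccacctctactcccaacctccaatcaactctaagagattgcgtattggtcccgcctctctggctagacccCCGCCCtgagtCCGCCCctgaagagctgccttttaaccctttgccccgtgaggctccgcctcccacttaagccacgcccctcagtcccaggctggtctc
Il2rg: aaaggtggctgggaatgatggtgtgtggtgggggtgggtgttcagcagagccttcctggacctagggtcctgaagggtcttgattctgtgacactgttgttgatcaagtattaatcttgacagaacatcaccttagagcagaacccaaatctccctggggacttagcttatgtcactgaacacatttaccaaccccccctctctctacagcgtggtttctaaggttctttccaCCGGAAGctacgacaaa

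In these windows, *Ifngr2* held 4 GC box matches, which overlap or adjoin each other in pairs, and *Il13ra1* held 3, of which a pair overlap. *Ifngr1* held 2, and *Il2rg* held none. Of all 32851 promoters in the table, 32.7% have at least 1 GC box match. *Ifngr2* also held 1 match to the STAT6-type spacing, beginning 91 bases before the start, against 5.85% of all promoters with such a match. *Il2rg* held 1 ETS match 17 bases before its start, against 6.91% of all promoters. The G and C content was 74.0% in *Ifngr2*, 70.8% in *Il13ra1*, 59.2% in *Ifngr1* and 49.2% in *Il2rg*, with a median of 52.4% over all promoters. The GAS letters (TTCNNNGAA) were matched only in *Il7r* among the 7 promoters, and the letters of an ISRE (GAAA and GAAA with 2 bases between) in none of these 7. A C/EBP match (TTGCNNAA) was found in *Il7r* alone, whose window begins inside an annotated exon of the gene. The shares of all promoters with these matches were 7.02%, 2.98% and 9.56%. These matches describe letters, and no binding was measured.

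Of the 9 chains tested, 7 were higher and 2 were lower in LIP at the threshold of 0.05 on the adjusted p, by edgeR's quasi-likelihood test with Benjamini-Hochberg adjustment over all genes tested. Of all genes tested, 53.6% passed the same threshold, 26.5% higher and 27.2% lower. The median log2 fold change of the 9 chains was 1.09, beside -0.09 for all genes tested. The chains were chosen with earlier results of these data known. The ranges of CPM in Ctrl and LIP were separate for each of the 9 chains. Separate ranges were found for 63.4% of all genes tested, 30.3% with LIP above and 33.1% with LIP below. The directions depend on the scaling between libraries, as described after the single chains.

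**Figure D1:**
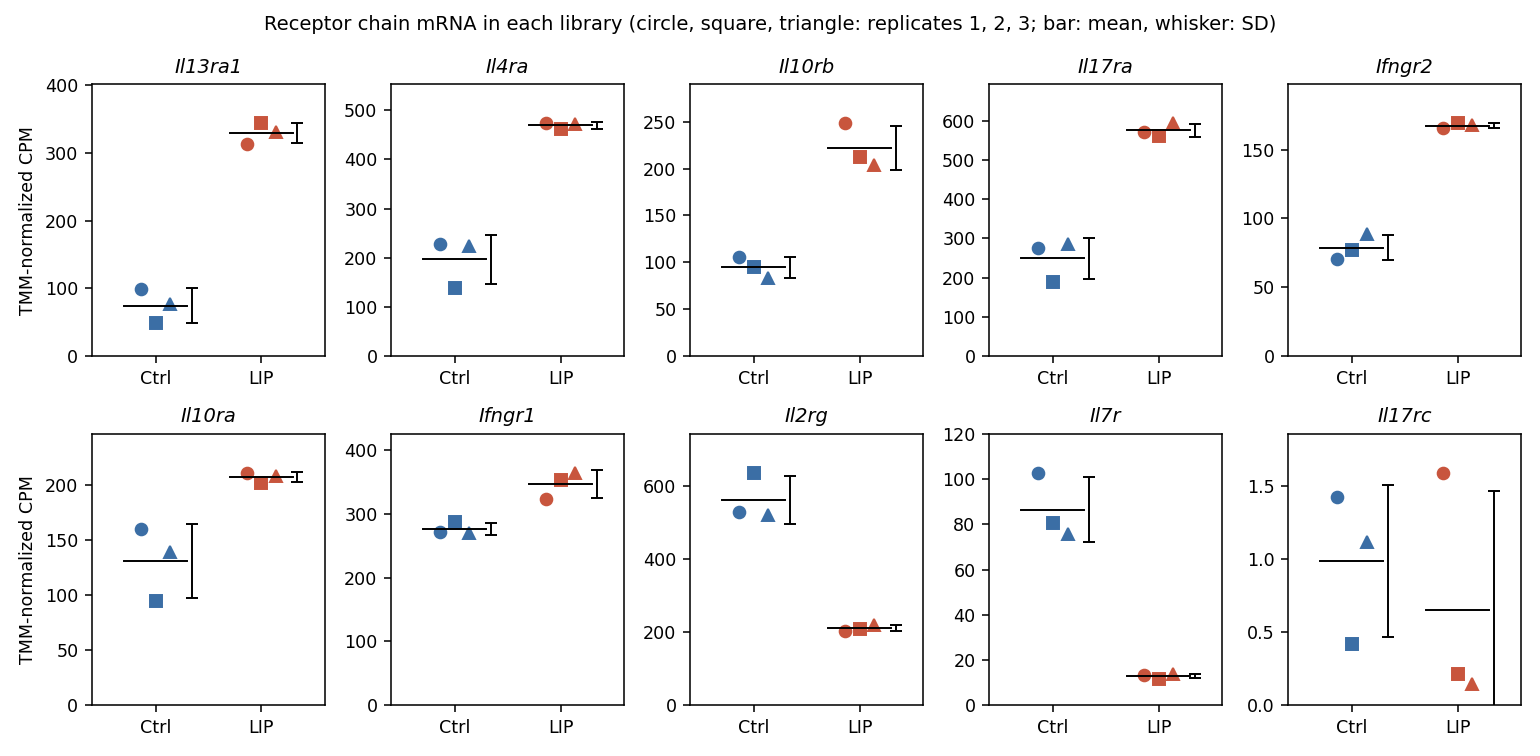
TMM-normalized CPM of each receptor chain (y axis from 0, a scale for each gene) in 3 Ctrl and 3 LIP libraries, with bars for the mean and whiskers for the SD; the lower whisker of *Il17rc* in LIP is cut at 0. In LIP, 7 chains lie higher, *Il2rg* and *Il7r* lie lower, and *Il17rc* overlaps; with scaling on neutrophil markers, 6 of these 7, all but *Il13ra1*, lie lower instead.

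*Il13ra1* (ENSMUSG00000017057, protein-coding, chromosome X from 36112110 to 36171259, GRCm38) encodes the chain that joins IL-4 receptor α in the type II receptor for IL-4 and IL-13. Its CPM was 99.3, 48.2 and 76.1 in Ctrl replicates 1 to 3 and 314, 344 and 332 in LIP replicates 1 to 3. Every LIP library was above 3 times the highest Ctrl library, and Ctrl replicate 2 was the lowest of all. Its log2 fold change reached 2.14 (SE 0.217, adjusted p = 1.78e-05 by edgeR), a 4.42-fold higher mean and the 98.9th percentile of all genes tested (SE is the standard error). Without Ctrl replicate 2, the log2 fold change was 1.93. Under every scaling tried it stayed above 0, but with scaling on neutrophil markers it was 0.33 (adjusted p = 0.23 by edgeR).

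*Il4ra* (ENSMUSG00000030748, chromosome 7 from 125552120 to 125579474) encodes the α chain common to both IL-4 receptors. Its CPM was 229, 139 and 223 in Ctrl and 473, 462 and 473 in LIP. The LIP libraries lay close together, and all lay above the highest Ctrl library. This gave a log2 fold change of 1.25 (SE 0.168, adjusted p = 0.000126 by edgeR), or 1.08 without Ctrl replicate 2, and -0.55 with scaling on neutrophil markers.

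*Il17ra* (ENSMUSG00000002897, chromosome 6 from 120463247 to 120487559) encodes the signalling chain shared by the receptors of the IL-17 family. CPM was 275, 189 and 285 in Ctrl and 572, 561 and 594 in LIP. Ctrl replicate 2 was again the lowest, and the groups were separated by a wide gap. In log2, LIP exceeded Ctrl by 1.20 (SE 0.144, adjusted p = 5.90e-05 by edgeR), or 1.06 without Ctrl replicate 2, and -0.60 with scaling on neutrophil markers.

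*Il17rc* (ENSMUSG00000030281, chromosome 6 from 113471427 to 113483140) encodes the partner of IL-17 receptor A for IL-17A and IL-17F. The Ctrl libraries held 86, 25 and 65 counts (1.43, 0.417 and 1.11 CPM), and the LIP libraries held 80, 11 and 7 counts (1.59, 0.216 and 0.148 CPM). LIP replicate 1 held the highest CPM of all 6 libraries and the remaining LIP libraries the lowest, so the groups overlap. At this depth a count of 3 corresponds to between 0.0498 and 0.0635 CPM, and no difference was resolved beyond the spread between libraries. With no filter on low values, edgeR's quasi-likelihood test gave a log2 fold change of -0.57 (adjusted p = 0.76).

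*Il10rb* (ENSMUSG00000022969, chromosome 16 from 91406164 to 91425834) encodes the accessory chain used by receptors for IL-10, IL-22 and interferon-λ. It measured 106, 94.9 and 83.7 CPM in Ctrl and 248, 213 and 204 CPM in LIP. All LIP libraries were clear of the Ctrl libraries. The estimated log2 fold change was 1.22 (SE 0.129, adjusted p = 2.36e-05 by edgeR), and -0.58 with scaling on neutrophil markers.

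*Il10ra* (ENSMUSG00000032089, chromosome 9 from 45253837 to 45269149, minus strand) encodes the ligand-binding IL-10 chain. It measured 160, 94.5 and 140 CPM in Ctrl, with a gap down to replicate 2, and 212, 202 and 208 CPM in LIP. The LIP values were above all Ctrl values, though the gap was smaller than the range within Ctrl. This gave a log2 fold change of 0.66 (SE 0.170, adjusted p = 0.00785 by edgeR), and 0.49 (adjusted p = 0.0031) without Ctrl replicate 2. By edgeR it did not pass with library totals (0.33, adjusted p = 0.13) or totals without haemoglobin genes (0.13, adjusted p = 0.55), and it was -1.15 with scaling on neutrophil markers. The gene overlaps the microRNA gene *Mir7086* on its own strand, which is listed at a mean of 4.06 FPKM, and reads in that stretch could be assigned to either.

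*Ifngr2* (ENSMUSG00000022965, chromosome 16 from 91547072 to 91565623) encodes the interferon-γ receptor chain that recruits JAK2. It measured 70.7, 76.7 and 88.6 CPM in Ctrl and 165, 169 and 168 CPM in LIP. The LIP libraries differed little among themselves and lay far above Ctrl. In log2, LIP exceeded Ctrl by 1.09 (SE 0.119, adjusted p = 3.08e-05 by edgeR), and -0.70 with scaling on neutrophil markers.

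*Ifngr1* (ENSMUSG00000020009, chromosome 10 from 19591949 to 19610229) encodes the chain that binds interferon-γ. It measured 272, 286 and 270.4 CPM in Ctrl and 323, 354 and 364 CPM in LIP. The groups were close but did not overlap on this scale. With TMM, the log2 fold change was 0.33 (SE 0.0952, adjusted p = 0.0142 by edgeR), 0.01 with library totals (adjusted p = 0.94), -0.20 with totals without haemoglobin genes (adjusted p = 0.085) and -1.47 with scaling on neutrophil markers. On the FPKM scale, where no TMM factor enters, the Ctrl libraries had 100.02 ± 2.24 and the LIP libraries 101.6 ± 6.81 (SD, n = 3 each), with overlapping values. The call was also lost without Ctrl replicate 3 (adjusted p = 0.059) and without LIP replicate 3 (adjusted p = 0.066), both by edgeR. With only genes of a mean FPKM of at least 5, it was lost as well (0.16, adjusted p = 0.13 by edgeR).

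*Il2rg* (ENSMUSG00000031304, chromosome X from 101264378 to 101268255, minus strand) encodes the common γ chain of the receptors for IL-2, IL-4, IL-7, IL-9, IL-15 and IL-21. It measured 529, 637 and 521 CPM in Ctrl and 203, 210 and 219 CPM in LIP. Ctrl replicate 2, low for the IL-4 and IL-17 chains, was the highest library here, and all LIP libraries lay far below Ctrl. This gave a log2 fold change of -1.42 (SE 0.107, adjusted p = 2.29e-06 by edgeR), a 2.67-fold lower mean, and -1.30 without Ctrl replicate 2.

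*Il7r* (ENSMUSG00000003882, chromosome 15 from 9505788 to 9530176, minus strand) encodes IL-7 receptor α, which pairs with the common γ chain. It measured 103, 80.6 and 75.8 CPM in Ctrl and 13.2, 11.8 and 13.7 CPM in LIP. The highest LIP library was far below the lowest Ctrl library. Its log2 fold change reached -2.74 (SE 0.168, adjusted p = 6.51e-07 by edgeR), a 6.69-fold lower mean and the 2.06th percentile of all genes tested.

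Each of the 7 higher chains lost its call or turned in at least 1 of the 17 alternative fits. *Il2rg* and *Il7r* stayed lower in all of them, but these fits shifted the median of all genes mainly downward, at most to -1.80 from its TMM value and upward by no more than 0.06, so they hardly bear on a lower gene. Genes called higher over the whole table numbered 2766 and lower 2835 with TMM, 1919 and 4146 with library totals, 1460 and 5120 with totals without haemoglobin genes, 60 and 9152 with scaling on neutrophil markers, and 2010 and 4249 with limma on log2(FPKM + 1). The median of all genes was -0.09, -0.42, -0.62, -1.89 and -0.31 in these fits. The neutrophil markers were themselves called higher with TMM, 21 of 21 with a median of 1.84, and their median was 0.03 with scaling on them. That scaling moves all genes downward together, these markers among them. Which scaling holds for these libraries was not tested. Relative to the median of all genes, the log2 fold change of *Il13ra1* was between 2.22 and 2.24, that of *Il4ra* between 1.34 and 1.35 and that of *Ifngr1* between 0.42 and 0.43 under the 4 scalings of counts, which shift all genes together.

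**Figure D2:**
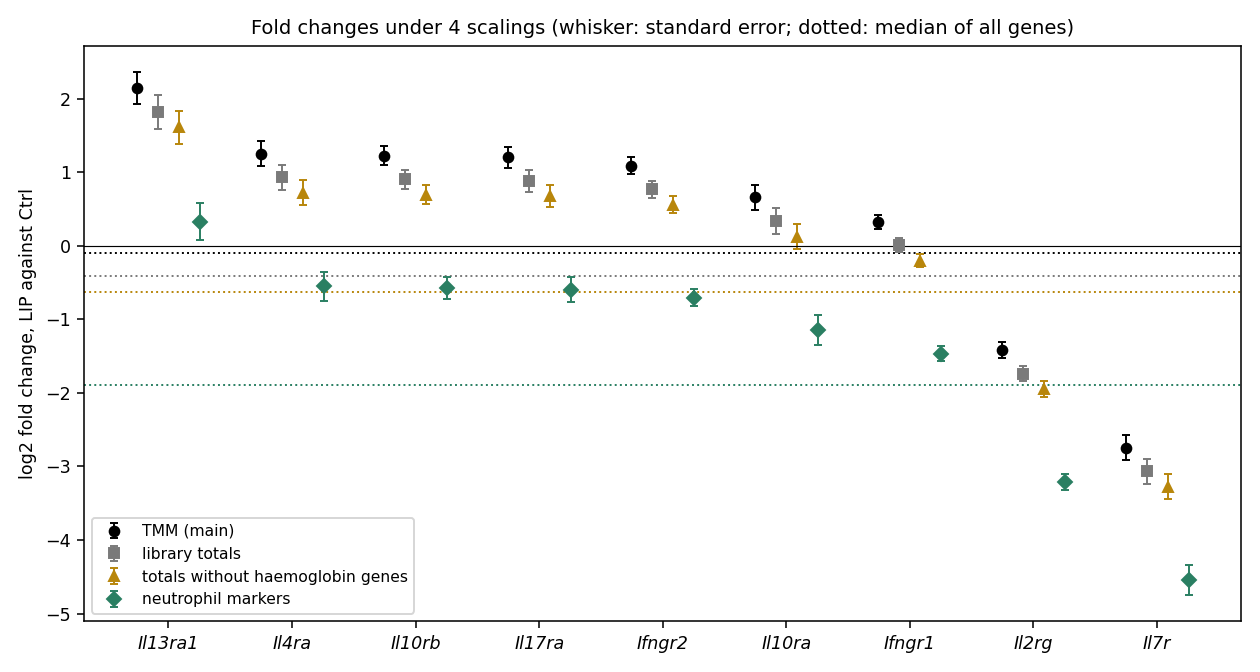
Log2 fold change of each tested chain, LIP against Ctrl (y axis), under 4 scalings of the counts; points are estimates, whiskers are standard errors and dotted lines are the median of all genes under that scaling. *Il13ra1* is above 0 and *Il2rg* and *Il7r* are below 0 in every scaling, *Ifngr1* runs from 0.33 to -1.47, and the other 5 chains turn below 0 with the neutrophil markers.

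Markers of other cell types moved with these results. The 17 T cell markers all fell (median log2 fold change -2.39), and their summed level was between 1248 and 1370 CPM in Ctrl and between 286 and 321 CPM in LIP. The 12 B cell markers all fell as well (median -2.60), from between 7777 and 8483 CPM to between 1391 and 1524 CPM. *Il7r* and *Il2rg* fell beside these lists. Set against 1000 CPM of T cell markers, *Il7r* was 82.1, 58.8 and 60.7 CPM in Ctrl and 41.6, 36.8 and 48.0 CPM in LIP, and against 1000 CPM of B cell markers it was 13.2, 9.51 and 9.45 CPM and 9.50, 7.76 and 9.06 CPM. *Il7r* thus fell by 0.67 on the log2 scale relative to the T cell markers and by 0.29 relative to the B cell markers, where the groups overlap. These sums weigh abundant markers most, and the log2 fold change of *Il7r* (-2.74) lay close to the medians over the single markers. *Il2rg* per 1000 CPM of T cell markers was 422, 465 and 417 CPM in Ctrl and 638, 653 and 766 CPM in LIP, so that it fell less than the T cell markers did. The part of lymphocyte RNA in either result was not tested. In such bulk libraries, fewer cells of a type and less RNA per cell cannot be told apart.

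The chains that were higher in LIP with TMM moved beside markers that were also higher on that scale. The 11 monocyte markers were all higher with TMM (median 1.09) and all below 0 with scaling on neutrophil markers (median -0.70). They summed to between 649 and 768 CPM in Ctrl and between 1558 and 1675 CPM in LIP, and the 8 platelet markers were all higher with TMM (median 1.24) and all below 0 with scaling on neutrophil markers (median -0.56). None of the monocyte, T cell, B cell, NK cell or neutrophil markers listed was at 0 in any library. Of the 9 NK cell markers, 3 were higher, namely *Ncr1*, *Klrb1c* and *Klre1*, none was lower, and the median was 0.25, or -0.07 with library totals. Among eosinophil and basophil markers, 7 were tested, with *Siglecf* higher, *Il5ra* lower and a median of 0.59, and *Prg2* was at 0 in 3 libraries and *Prss34* in 2. The 8 erythroid markers tested were all lower (median -2.96). In Ctrl replicate 2, the monocyte markers summed to 85.7% of the mean of the other Ctrl libraries and the neutrophil markers to 107.4%, beside 55.0% for *Il13ra1*. Set against 1000 CPM of neutrophil markers, the higher chains changed by between -1.47 (*Ifngr1*) and -0.55 (*Il4ra*) on the log2 scale, except *Il13ra1* (0.33). The part of neutrophil, monocyte or platelet RNA in the higher chains was not tested.

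**Figure D3:**
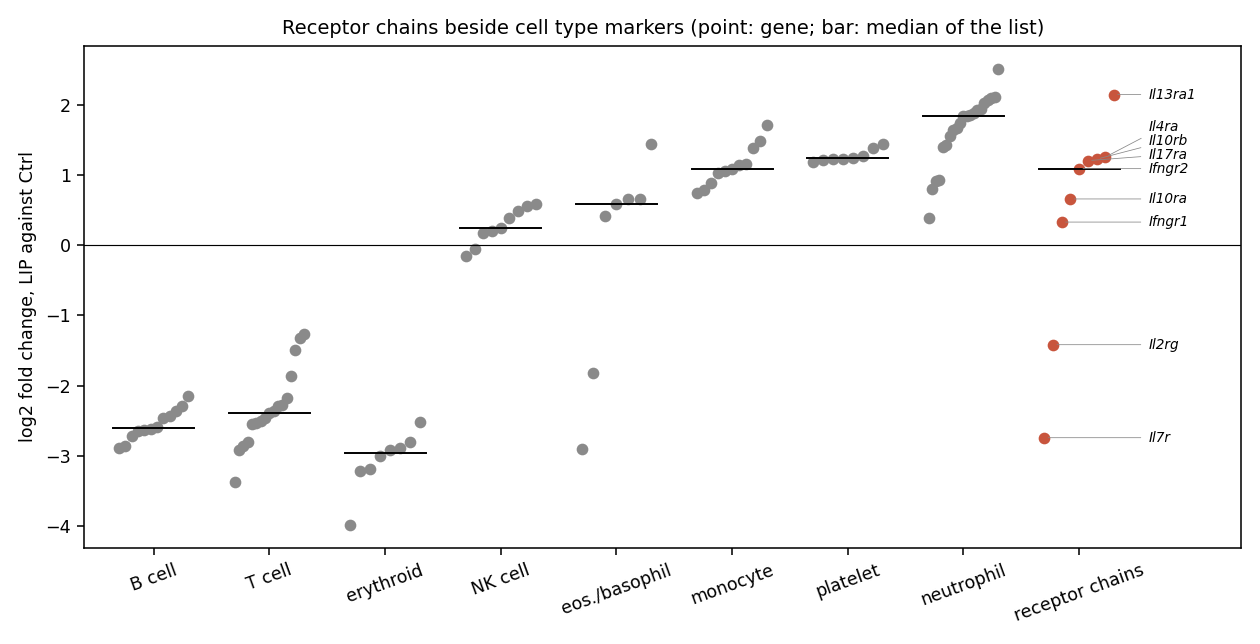
Log2 fold change, LIP against Ctrl with TMM (y axis), of each tested marker of 8 cell types (grey points) and of the 9 tested receptor chains (red points), with a bar for the median of each list. *Il7r* lies among the T cell, B cell and erythroid markers and *Il2rg* at the upper edge of the T cell markers, while 7 chains lie above 0, of which 6, all but *Il13ra1*, are below 0 when scaled on the neutrophil markers.

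Levels were compared between chains as FPKM, since CPM does not account for gene length. In Ctrl, *Il2rg* was the most abundant chain at 242.6 ± 24.9 FPKM, followed by *Ifngr1* at 100.02 ± 2.24 FPKM (SD, n = 3 each), and these ranks did not overlap. Below them, the mean levels ran from 38.8 FPKM for *Il10ra* over *Il4ra*, *Il17ra*, *Il10rb*, *Ifngr2* and *Il13ra1* to 19.1 FPKM for *Il7r*, and each neighbour in this order overlapped the next. *Il17rc* came last at 0.378 ± 0.203 FPKM (SD, n = 3).

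In LIP, *Ifngr1* was the most abundant chain, and *Il13ra1* at 74.0 ± 3.72 FPKM and *Il2rg* at 73.5 ± 3.15 FPKM (SD, n = 3 each) came next with overlapping values. *Il4ra* at 65.2 FPKM and *Il17ra* at 55.4 FPKM followed without overlap, then *Il10ra* at 49.4 FPKM and *Il10rb* at 48.5 FPKM, which overlapped, and *Ifngr2* at 37.0 FPKM. *Il7r* at 2.30 FPKM and *Il17rc* at 0.196 FPKM were far below the rest. The order of the chains therefore differed between the groups: *Il13ra1* stood at rank 7, 9 and 8 in the Ctrl libraries and at rank 3, 2 and 3 in the LIP libraries. Ranks within a library do not depend on the scaling between libraries, but they can depend on the mixture of cells in it.

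**Figure D4:**
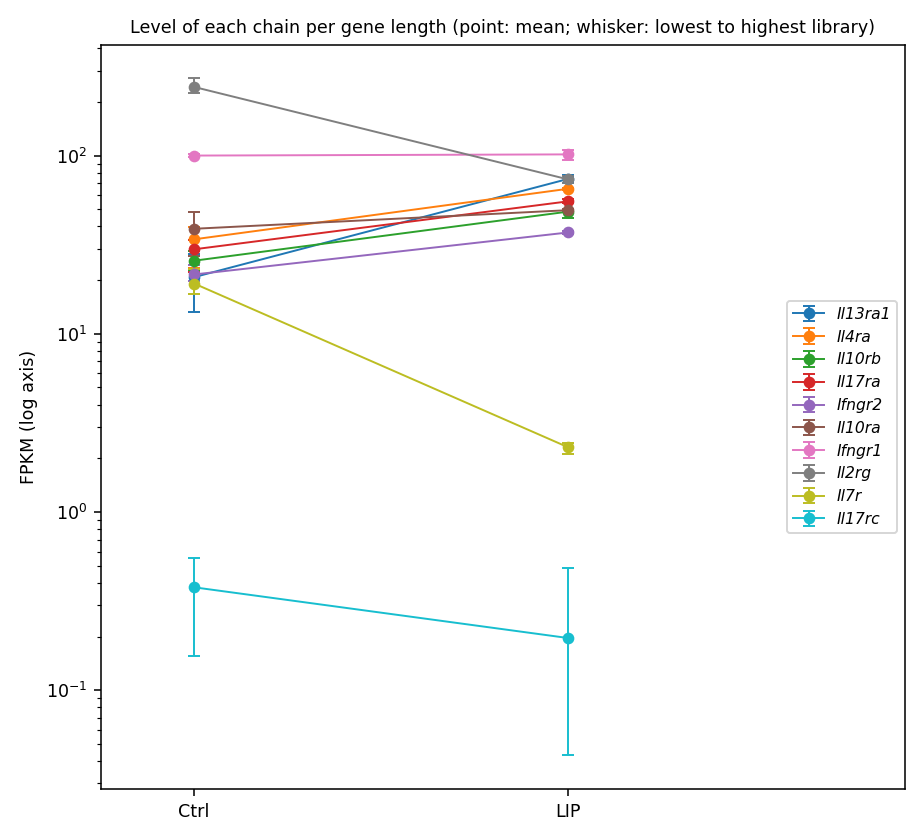
Mean FPKM of each chain (y axis, log scale) in Ctrl and LIP, with whiskers from the lowest to the highest of 3 libraries. *Il13ra1* goes from 20.8 to 74.0 FPKM and reaches the level of *Il2rg*, which goes from 242.6 to 73.5 FPKM, while *Ifngr1* stays near 100 FPKM; these are levels as deposited, without TMM.

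The balance of the chains of each receptor was taken as the ratio of their FPKM within a library, with 0.1 FPKM added to each, which is also free of scaling. It is not free of the mixture of cells, since the chains of a pair can come from different cells. T and B cell markers were lower in LIP (median log2 fold changes -2.39 and -2.60). The part of lymphocyte RNA in these ratios was not tested. All 6 pairs were compared by two-sided exact permutation tests over the libraries, in which 3 against 3 cannot go below p = 0.1. Of these, 5 pairs did not overlap between groups and reached this smallest value (adjusted p = 0.12 over the 6 pairs), so none could pass 0.05 in this design.

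For the type I IL-4 receptor, *Il4ra* per *Il2rg* was 0.172, 0.0872 and 0.170 in Ctrl and 0.930, 0.875 and 0.860 in LIP. The mRNA levels of the chains were thus near equal in the LIP libraries and far apart in the Ctrl libraries, with a difference of 2.70 in log2 ratio (exact p = 0.1). For the type II receptor, *Il4ra* per *Il13ra1* was 1.42, 1.78 and 1.81 in Ctrl and 0.933, 0.831 and 0.882 in LIP, so that the more abundant chain changed from *Il4ra* to *Il13ra1* in every library. The log2 difference was -0.91 (exact p = 0.1).

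For the interferon-γ receptor, *Ifngr1* per *Ifngr2* was 5.07, 4.92 and 4.03 in Ctrl and 2.58, 2.76 and 2.87 in LIP. *Ifngr1* remained the more abundant chain in all 6 libraries, by a smaller ratio in LIP, with a log2 difference of -0.77 (exact p = 0.1). For the IL-10 receptor, *Il10ra* per *Il10rb* was 1.64, 1.08 and 1.81 in Ctrl and 0.927, 1.04 and 1.11 in LIP. These groups overlap through Ctrl replicate 2, and the log2 difference was -0.53 (exact p = 0.2, adjusted p = 0.20).

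For the IL-7 receptor, *Il7r* per *Il2rg* was 0.09995, 0.0651 and 0.0749 in Ctrl and 0.0347, 0.0301 and 0.0333 in LIP, with a log2 difference of -1.27 (exact p = 0.1). For the IL-17 receptor, *Il17ra* per *Il17rc* was 51.2, 87.2 and 64.8 in Ctrl and 94.0, 335 and 401 in LIP, with a log2 difference of 1.82 (exact p = 0.1). The latter rests on the few *Il17rc* counts above, and the 0.1 FPKM added exceeds *Il17rc* itself in 2 LIP libraries.

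**Figure D5:**
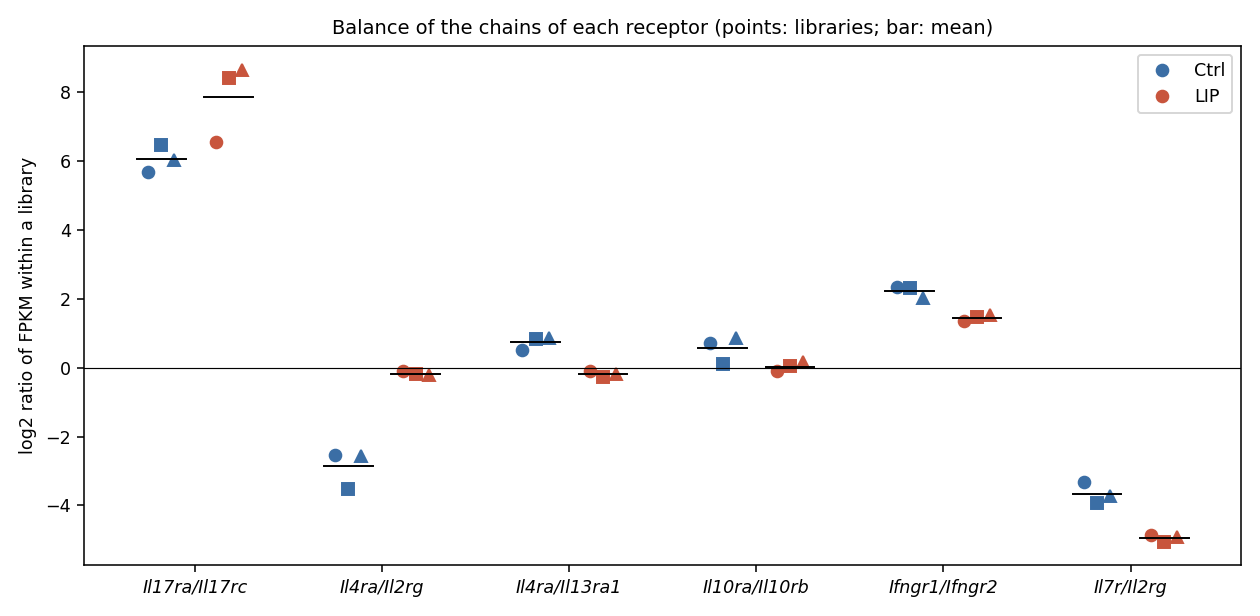
Log2 ratio of FPKM of the 2 chains of each receptor within a library (y axis; 0 means equal levels), for 3 Ctrl and 3 LIP libraries (circles, squares and triangles for replicates 1, 2 and 3), with bars for the mean. *Il4ra*/*Il2rg* goes from a mean of -2.87 to -0.17, and *Il4ra*/*Il13ra1* goes from 0.73 to -0.18. The part of lymphocyte RNA in these ratios was not tested.

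The genes most like *Il13ra1* and *Il7r* were chosen as the 3 tested genes whose log2 CPM, centred over the 6 libraries, differed least from theirs. For *Il13ra1* these were *Fkbp5*, a glucocorticoid-induced immunophilin gene (root mean square difference 0.084), *Adam8*, a metalloprotease gene (0.124), and *Mmp25*, encoding a membrane-bound matrix metalloproteinase of neutrophils (0.149). *Fkbp5* measured 114, 59.4 and 94.4 CPM in Ctrl and 373, 372 and 354 CPM in LIP, with the same low Ctrl replicate 2. For *Il7r* they were the haemoglobin gene *Hba-a1* (0.128), the immunoglobulin light chain gene *Igkv4-80* (0.141) and *Ighd*, the IgD heavy chain gene (0.143). *Hba-a1* and *Igkv4-80* belong to multigene families between which counting could split reads.

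The table's annotation gives all 10 genes as members of the KEGG cytokine-cytokine receptor interaction pathway (223 genes in the table) and 8 of them, without *Il17ra* and *Il17rc*, as members of the Jak-STAT pathway (140 genes). *Il10rb* and *Ifngr2* lie on the same strand of chromosome 16, with 121237 bases between them. The genes for both type I interferon receptor chains lie in the same stretch, *Ifnar2* before *Il10rb* and *Ifnar1* between the pair. With TMM, *Ifnar2* had a log2 fold change of 0.97 (adjusted p = 4.09e-05 by edgeR), which became -0.83 with scaling on neutrophil markers. *Ifnar1* had one of 0.62 (adjusted p = 0.00829 by edgeR), which was 0.30 with library totals and no longer called (adjusted p = 0.15) and -1.19 with scaling on neutrophil markers. Both are named after their values were seen. *Ifnar1* measured 78.1, 49.7 and 66.9 CPM in Ctrl, with replicate 2 again lowest, and 100.2, 103 and 96.5 CPM in LIP.

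With earlier results of these data known, genes that work with these chains were taken from lists of related chains, ligands, signalling proteins and known target genes. Of the 54 tested, 33 were higher and 6 lower in LIP, with a median log2 fold change of 0.74 beside -0.09 for all genes tested, of which 26.5% were higher and 27.2% lower, and with scaling on neutrophil markers these counts became 1, which was *Lcn2*, and 39. Library totals and totals without haemoglobin genes gave 28 and 12, and 24 and 12. Among related receptor chains, 7 were tested, 5 were higher, 1 was lower and the median was 0.97. *Ifnlr1*, the interferon-λ receptor chain that pairs with the product of *Il10rb*, measured 4.33, 3.31 and 2.98 CPM in Ctrl and 21.3, 11.3 and 12.2 CPM in LIP (log2 fold change 2.07). Its mean FPKM was 0.874 in Ctrl and 2.97 in LIP, so it reached the level of 1 for testing only through LIP. *Il15ra* and *Crlf2*, the chains for IL-15 and TSLP, had log2 fold changes of 1.55 and 1.30. *Il21r*, which pairs with the common γ chain, measured 58.6, 48.9 and 41.6 CPM in Ctrl and 13.8, 11.9 and 14.1 CPM in LIP (log2 fold change -1.90). It fell beside the T and B cell markers (medians -2.39 and -2.60), and the part of lymphocyte RNA in its fall was not tested. *Il2rb*, named after its values were seen, did not pass (-0.16, adjusted p = 0.261 by edgeR) but did with library totals (-0.48, adjusted p = 0.006).

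Of the ligands, only *Il15*, *Ifng* and *Il10* were abundant enough to be tested. *Il15* was higher in LIP (log2 fold change 1.74), at 27.7, 28.0 and 31.6 CPM in Ctrl and 89.4, 104 and 98.3 CPM in LIP. *Ifng*, named after its values were seen, did not pass (log2 fold change -0.36, adjusted p = 0.247 by edgeR) but did with library totals (-0.67, adjusted p = 0.039), and *Il10* held between 151 and 285 counts and was not called. *Il17a* was listed with 45 and 55 counts in LIP replicates 1 and 2 and at 0 in the remaining 4 libraries.

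Among 16 signalling genes tested, 7 were higher and 3 lower, with a median of 0.47, and these 10 called genes stand beside 53.6% called of all genes tested. *Socs3*, an inhibitor induced by STAT3, measured 144, 118 and 145 CPM in Ctrl and 496, 437 and 504 CPM in LIP (log2 fold change 1.82). *Stat3*, the factor downstream of IL-10, had a log2 fold change of 1.34, and *Ptpn6*, which encodes the phosphatase SHP-1, one of 0.51. *Traf3ip2*, which encodes the IL-17 receptor adaptor Act1, was lower at 27.3, 20.9 and 19.4 CPM in Ctrl and 3.32, 6.47 and 3.35 CPM in LIP (log2 fold change -2.36), while *Il17ra* was higher with TMM. This fall lay close to the medians of the T and B cell markers (-2.39 and -2.60). The part of lymphocyte RNA in it was not tested. The other lower genes, *Irs2* (-1.08) and *Socs1* (-0.55), are named after their values were seen, and *Socs1* was not called without LIP replicate 2 (adjusted p = 0.058 by edgeR).

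Of the genes known to respond to interferon-γ, 10 were tested, 7 were higher and 2 lower, with a median of 1.01. For this and the next lists, 26.5% of all genes tested were higher and 27.2% lower, and the lists were chosen with earlier results known. *Gbp2*, *Cxcl10* and *Irf1* had log2 fold changes of 1.65, 1.48 and 1.14. *Ciita*, the MHC class II transactivator, fell from 159, 158 and 154 CPM to 42.9, 32.4 and 25.9 CPM (log2 fold change -2.22), and *Irf8*, named after its values were seen, had one of -1.15. B cells are known to use both of the latter genes, and the part of B cell RNA in their fall was not tested. Of the IL-4 targets, 4 were tested, and *Clec10a* (1.87) and *Chil3* (0.63) were called higher, none was called lower, and the median was 0.37. *Clec10a* held 46, 116 and 140 counts in Ctrl. Its mean FPKM was 0.592 in Ctrl and 1.78 in LIP, so it reached the level of 1 for testing only through LIP. *Irf4*, named after its values were seen, was not called (log2 fold change -1.51, adjusted p = 0.0775 by edgeR), although its LIP libraries lay below its Ctrl libraries, and it was called with library totals (-1.84, adjusted p = 0.039) and without LIP replicate 1 (-2.72, adjusted p = 0.00145).

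Of the IL-10 targets, 6 were tested and 5 were higher, with a median of 1.54. Beside this list and the next, 26.5% of all genes tested were higher, and the median of the neutrophil markers was 1.84. *Zfp36*, which encodes the mRNA decay factor tristetraprolin, rose most in this list (log2 fold change 1.93), followed by *Sbno2* (1.91) and *Nfil3* (1.57), with *Bcl3* (1.39) and *Il1rn* (1.51), named after their values were seen, also higher. Of the IL-17 targets, 8 were tested and 6 were higher, with a median of 1.62. *Lcn2*, which encodes lipocalin 2 of neutrophil granules, measured 319, 399 and 352 CPM in Ctrl and 1424, 1453 and 1584 CPM in LIP (log2 fold change 2.06). *Cebpd*, *Cxcl1* and *Cxcl2* had log2 fold changes of 1.83, 1.82 and 1.77. No tested gene of either list was called lower, and the tested genes that were not called included some below 0. The members of these lists respond to other signals as well, and some, such as *Lcn2*, are abundant neutrophil transcripts. Of the genes named in these lists as higher with TMM, *Il15ra*, *Crlf2*, *Il15*, *Stat3*, *Ptpn6*, *Gbp2*, *Cxcl10*, *Irf1*, *Chil3*, *Nfil3*, *Bcl3*, *Il1rn* and *Cxcl2* turned below 0 with scaling on neutrophil markers.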

How the data were processed

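Smart-seq2 libraries of sorted PB neutrophils (3 Ctrl, 3 LIP) were grouped by their sample labels. For each gene the authors deposited raw, not normalized read counts and FPKM values, which the authors derived from these counts with gene length and library size. Reads were paired, of 150 bases. Per the labels, the submitters' processing notes name cutadapt 1.9, FastQC and the build GRCm38, while the aligner, the counting tool and the use of strand are not given in the sources used here. Where a gene name occurred on several rows (50 names), the row of highest mean FPKM was kept.

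The counts of all 10440 genes whose mean FPKM reached 1 were tested with edgeR 4.0.16 (R 4.3.3) by glmQLFit and glmQLFTest. Libraries were scaled by TMM, a method that takes most genes to be unchanged, and p-values were given Benjamini-Hochberg adjustment over these genes. A standard error is the size of the log2 fold change over the square root of its F statistic. TMM factors were 1.10 to 1.13 in Ctrl and 0.889 to 0.905 in LIP, and the common biological coefficient of variation was 0.265. The fits were run on simulated data in which few genes changed, as many up as down. No difference in composition was simulated, so that run does not bear on the scaling used here. Chi-square per gene between libraries of a group was 39.1 to 77.0, well beyond sampling noise. The depth makes the counting error of reads small for all chains except *Il17rc*. Since reads are not independent molecules, the error from sampling molecules is not known. Limits from counts cover counting error only.

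The members and gene lists were chosen with earlier results of these data known. Genes named are all members, the 3 most changed called genes and the most abundant tested gene of each pathway list, and the 3 genes most like the highest and the lowest member. A further 10 were named after their values were seen. Alternatives were other scalings, filters on low values, DESeq2 1.42.0, limma 3.58.1 on log2(FPKM + 1) and log2(FPKM + 0.1), a replicate block and leaving out each library. Promoter letters were searched on both strands in the RefSeq table (GRCm38.p6). BM libraries and protein sequences were not used here.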

Additional observations from a re-analysis of the deposited data

How the results depend on the processing

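The 47 log2 fold changes of single genes kept their direction and their side of the threshold with median-of-ratios factors, DESeq2, filterByExpr and no filter on low values. With library totals and with totals without haemoglobin genes, 12 pathway genes were called lower in each, beside 6 with TMM. Totals without haemoglobin genes turned *Ifngr1* to -0.20 and *Ptpn6* to -0.014. Scaling on neutrophil markers, which moves all genes downward together, left 0 chains higher and 8 lower, and 1 pathway gene higher and 39 lower. Under it, the log2 fold changes that turned were -0.60 for *Il17ra*, -0.55 for *Il4ra*, -1.15 for *Il10ra*, -0.58 for *Il10rb*, -1.47 for *Ifngr1*, -0.70 for *Ifngr2*, -0.25 for *Il15ra*, -0.48 for *Crlf2*, -0.057 for *Il15*, -0.46 for *Stat3*, -1.28 for *Ptpn6*, -0.16 for *Gbp2*, -0.32 for *Cxcl10*, -0.66 for *Irf1*, -1.16 for *Chil3*, -0.23 for *Nfil3*, -0.018 for *Cxcl2*, -1.19 for *Ifnar1*, -0.83 for *Ifnar2*, -0.40 for *Bcl3* and -0.29 for *Il1rn*. The limma fits called 5 chains higher and 2 lower with either pseudocount, without *Il10ra* and *Ifngr1*. The filter at a mean FPKM of 5 called 6 and 2, without *Ifngr1*, beside 1768 higher and 1869 lower of all 5328 genes in that fit. With each library left out, between 6 and 7 chains were higher and 2 lower, and between 31 and 35 pathway genes were higher and between 5 and 7 lower. Of all 10440 genes tested, between 2419 and 2615 were higher and between 2255 and 2770 lower in these fits. Where a call was lost by a filter or a left-out library, the cause was not tested. The 6 chain ratios kept their direction under all 9 alternatives.

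The labels give both groups the same replicate numbers. Same-numbered libraries come from different mice, and their deviations from the group means correlated at -0.013, 0.043 and 0.023, so the numbers do not pair the libraries. The replicate block gave 7 chains higher and 2 lower, and 35 pathway genes higher and 7 lower, with 5546 genes called in all beside 5601 without it, and among the single genes it changed the call of *Irf4* (-2.05, adjusted p = 0.017 by edgeR). Not every library correlated best with its own number.

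With 3 pools a group, exact permutation tests of the chain ratios cannot pass 0.05, and *Il17rc*, with 7 to 86 counts and a wide spread between libraries, was not tested in the main fit.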
